A study of Mus musculus with 46 samples.

Results

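The conjugating enzymes are the genes of 3 superfamilies that attach a polar group to a foreign or endogenous molecule: the UDP-glucuronosyltransferases (UGT), the soluble glutathione S-transferases (GST) and the cytosolic sulfotransferases (SULT). Members were taken by gene symbol (Ugt1 to Ugt3, the Gst classes a, k, m, o, p, t and z, and Sult) among protein-coding genes, with at least 20 counts summed over the libraries used. The rule used no difference between genotypes. It gave 57 of the 53465 genes in the table, namely 18 UGT, 21 GST and 18 SULT genes, and left out 7 further genes that fell below 20 counts. By family there were 8 Ugt1a, 8 Ugt2 and 2 Ugt3 genes, 4 Gsta, 7 Gstm, 3 Gstp and 7 other Gst genes, and 5 Sult1, 8 Sult2 and 5 other Sult genes.

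Messenger RNA of C57BL/6 mice was sequenced at postnatal day 23. The labels put the P195A allele in both groups: 8 animals are labelled P195A/p150- (p150neg here) and 8 are labelled P195A/p150+ (p150pos). As background, P195A is a change in Adar, the gene of the RNA-editing enzyme ADAR1, and p150 is the longer, interferon-inducible ADAR1 isoform, which carries the Z-nucleic-acid-binding domain that P195A alters. The groups compared were therefore livers, kidneys and cerebella of p150neg animals against those of p150pos animals, and no animals without P195A were analysed here. Of 46 libraries, 41 were used: 7 p150neg and 7 p150pos livers, 5 p150neg and 7 p150pos kidneys, and 8 p150neg and 7 p150pos cerebella. The other 5 held RNA of another organ than their label: their summed identity genes of the labelled tissue reached at most 0.825% of the median for that label, against at least 59.8% in the libraries used. Totals per library, in M (1000000 counts), spanned 0.532 to 3.789 in p150neg and 1.682 to 4.304 in p150pos livers. They spanned 0.269 to 3.499 M in p150neg and 1.299 to 4.876 M in p150pos kidneys, and 0.945 to 5.468 M in p150neg and 2.896 to 6.237 M in p150pos cerebella. Levels are counts per 1000000 counts of a library (CPM). Counts of Adar itself, which do not separate p150 from the shorter isoform, averaged 7.36 ± 4.49 CPM in p150neg and 11.8 ± 5.14 CPM in p150pos livers (SD, n = 7 each, adjusted p = 0.317, edgeR), so the counts do not check the genotype labels.

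As background, UGTs sit in the membrane of the endoplasmic reticulum and transfer glucuronic acid from UDP-glucuronic acid, which is how bilirubin, steroids and many drugs leave the liver. GSTs couple glutathione to electrophiles and lipid peroxidation products, and some bind haem and bile pigments without reaction. SULTs transfer sulfate from the activated donor PAPS to phenols, steroids and bile acids. Liver carries many members of all 3 superfamilies, the kidney tubule carries a smaller set, and the enzymes depend on other genes for their cosubstrates and for export of the conjugates. Liver-rich UGT and SULT genes are textbook targets of the homeodomain factor HNF1, and several GST genes of the antioxidant factor NRF2.

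The sequences upstream of some members are shown first, because the Ugt2 genes lie side by side on 1 chromosome and some are alike in this stretch. The Ugt2 genes were the largest group that moved together in liver. Of the 57 members, 49 had an entry in the RefSeq promoter table (GRCm38.p6), and 8 had none. Where a gene had several entries, the first one listed was used. The 250 bases before the annotated start were searched on both strands for the HNF1 palindrome (GTTAAT, 1 free base and ATTAAC, which reads alike on both strands), with up to 3 of its 12 fixed letters off, a tolerance set after the sequences had been read. The window is printed 5′ to 3′ on the gene's strand for 4 Ugt2 genes that fell in p150neg livers, for Ugt2b35, which did not pass the test, and for the Sult2 genes that moved furthest in each direction. Capitals mark each stretch that matched the palindrome.
Ugt2a3 (chr5:87337196-87337445, - strand): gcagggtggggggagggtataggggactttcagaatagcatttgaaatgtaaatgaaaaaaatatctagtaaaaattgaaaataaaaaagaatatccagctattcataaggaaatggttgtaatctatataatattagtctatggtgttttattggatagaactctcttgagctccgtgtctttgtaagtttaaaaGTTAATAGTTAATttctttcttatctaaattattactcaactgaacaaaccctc
Ugt2b1 (chr5:86926504-86926753, - strand): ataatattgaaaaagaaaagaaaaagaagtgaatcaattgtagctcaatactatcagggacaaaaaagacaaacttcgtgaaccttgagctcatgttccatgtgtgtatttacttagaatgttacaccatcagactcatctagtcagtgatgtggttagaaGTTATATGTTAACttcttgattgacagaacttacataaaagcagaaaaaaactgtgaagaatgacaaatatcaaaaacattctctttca
Ugt2b5 (chr5:87140341-87140590, - strand): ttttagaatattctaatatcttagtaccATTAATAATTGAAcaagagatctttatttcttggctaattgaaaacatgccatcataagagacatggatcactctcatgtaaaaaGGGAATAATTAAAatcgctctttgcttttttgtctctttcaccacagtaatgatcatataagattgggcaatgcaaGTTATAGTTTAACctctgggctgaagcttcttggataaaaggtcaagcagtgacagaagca
Ugt2b36 (chr5:87092556-87092805, - strand): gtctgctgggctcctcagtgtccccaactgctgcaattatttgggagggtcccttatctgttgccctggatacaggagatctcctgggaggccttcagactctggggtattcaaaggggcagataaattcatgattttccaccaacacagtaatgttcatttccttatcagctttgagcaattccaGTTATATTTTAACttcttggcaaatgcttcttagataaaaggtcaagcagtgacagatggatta
Ugt2b35 (chr5:87000610-87000859, + strand): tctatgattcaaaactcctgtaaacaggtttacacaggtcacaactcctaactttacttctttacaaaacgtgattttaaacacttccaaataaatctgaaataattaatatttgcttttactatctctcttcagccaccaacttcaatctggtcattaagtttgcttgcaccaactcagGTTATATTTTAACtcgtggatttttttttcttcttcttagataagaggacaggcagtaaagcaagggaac
Sult2a8 (chr7:14446588-14446837, - strand): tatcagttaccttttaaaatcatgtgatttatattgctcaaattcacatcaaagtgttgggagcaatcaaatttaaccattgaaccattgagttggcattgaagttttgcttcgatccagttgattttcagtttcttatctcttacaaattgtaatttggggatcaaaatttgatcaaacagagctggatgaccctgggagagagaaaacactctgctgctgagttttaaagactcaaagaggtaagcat
Sult2a3 (chr7:14123049-14123298, - strand): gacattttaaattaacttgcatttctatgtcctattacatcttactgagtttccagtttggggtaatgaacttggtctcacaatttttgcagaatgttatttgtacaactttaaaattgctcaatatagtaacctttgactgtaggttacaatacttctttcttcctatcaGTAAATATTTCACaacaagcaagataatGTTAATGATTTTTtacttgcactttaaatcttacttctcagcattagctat

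The palindrome at this tolerance was in 20 of 49 member promoters (40.8%), against 7.84% of 27025 promoters in the table, and in 8 of 8 Ugt2 promoters. It was in 5 of 7 Ugt1a and 3 of 5 Sult2 promoters, and in 1 Gst promoter, that of Gstm7. Ugt2a3 matched with 2 letters off, between 54 and 42 bases before its start. Ugt2b36 and Ugt2b5 matched with 3 letters off, in windows that began 64 and 61 bases before their starts, and Ugt2b5 held 2 further matches upstream. Ugt2b35 matched 70 bases before its start, so the match is present in a promoter whose gene passed no test as well as in those that fell. Sult2a8, which fell, had no match in this window, and Sult2a3, which rose, had 2. In the GENCODE M21 annotation Sult2a8 starts at 14446769 and Ugt2b1 at 86926530, both on the - strand and inside their printed windows. By that annotation most of the Sult2a8 window, and a small part of the Ugt2b1 window, lies within the gene. The lack of a match in Sult2a8 therefore covers few of the bases upstream of that start, and says little beside the matches of Sult2a3. Over the 100 bases before the start, Ugt2b36 shared 75 bases with Ugt2b5 and 70 with Ugt2b35, while Ugt2b5 shared 57 with Ugt2a3 and 54 with Ugt2b1. Ugt2b34, Ugt2b37 and Ugt2b38 were not compared in this way. Median A and T content was 66.6% in Ugt2 promoters, 56.0% in all member promoters and 48.0% in the whole table, a difference of composition that moves with the count of A- and T-rich matches. The form GTTAATNAT, part of the palindrome with no letter off, was in 7 of 49 member promoters (14.3%) and 0.781% of the table. Those 7 were Sult1d1, Sult2a3, Sult2a5, Sult2a6, Ugt1a1, Ugt1a10 and Ugt1a9. No Ugt2 promoter held this form, so the count of 8 of 8 depends on the tolerance. The STAT5 form TTCNNNGAA was in 6.12% of member promoters and 7.18% of the table, the antioxidant response element TGACNNNGC in 4.08% and 10.1%, and the xenobiotic response element GCGTG in 14.3% and 28.2%. These matches describe letters in this window only.

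**Figure D1:**
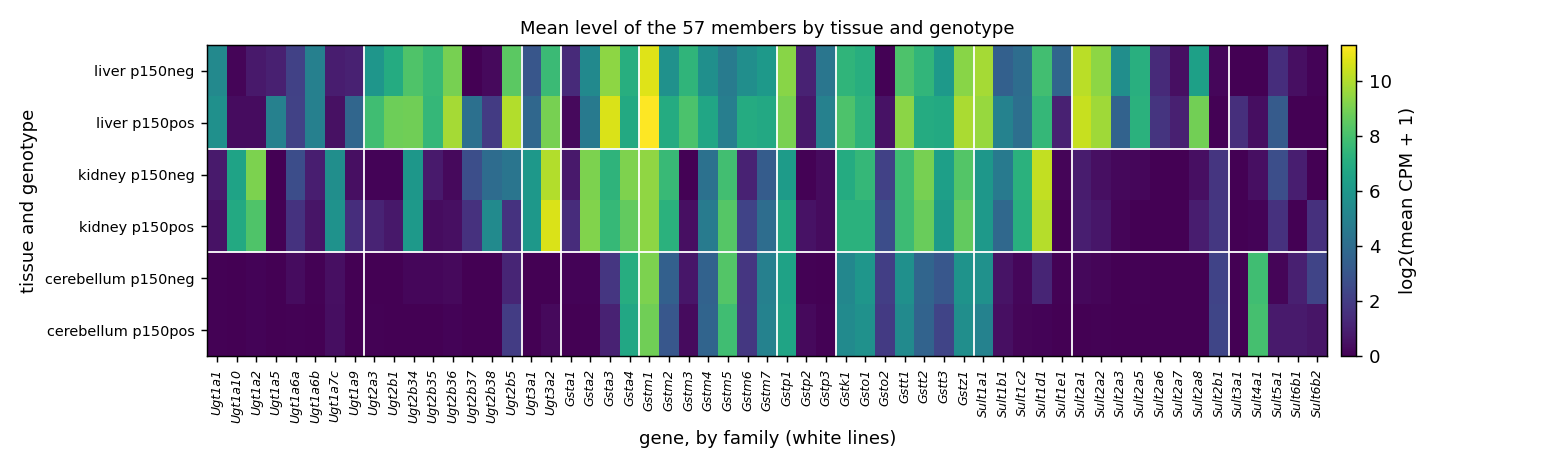
Mean level of each of the 57 members, as log2(mean CPM + 1) by colour, in p150neg and p150pos libraries (rows) of liver, kidney and cerebellum, with families set apart by white lines. In p150pos animals 38 members were highest in liver, 16 in kidney and 3 in cerebellum.

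The tissues used different members. In p150pos animals 38 members had their highest mean CPM in liver, 16 in kidney and 3 in cerebellum, as the map of mean levels shows. Per kilobase of exon, the highest mean levels in p150pos livers were 1727 CPM per kb for Gstm1, 1273 for Sult2a1 and 1122 for Sult2a2, the last 2 being hydroxysteroid and bile acid sulfotransferases. In p150pos kidneys they were 523 CPM per kb for Ugt3a2, 489 for Gsta2, 455 for Gstm1 and 437 for Sult1d1. In p150pos cerebella they were 316 CPM per kb for Gstm1, 177 for Gstm5 and 99.3 for Sult4a1, the brain sulfotransferase. UGT genes summed to only 0 to 7.25 CPM in p150neg and 2.70 to 6.22 CPM in p150pos cerebella.

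In liver nearly all conjugating enzymes that passed the test were lower in p150neg animals, with the Ugt2 family first among them. Of the 57 members 39 passed the filter on low counts, and with edgeR's quasi-likelihood test 17 fell and 1 rose at a Benjamini-Hochberg adjusted p under 0.05. That is 46.2% of the 39, beside 11.7% of the 9843 genes tested in liver, of which 4.76% were called lower and 6.94% called higher in p150neg livers. The median log2 fold change (p150neg over p150pos) was -0.63 over the 39 members and -0.04 over all genes tested, and 30 of the 39 were below 0. Of the 17 that fell, 13 fell by at least 1 on the log2 scale. In 10 of the 17 every p150neg liver was below every p150pos liver, a separation seen in that direction in 1.65% of all genes tested. By superfamily 7 of 11 UGT, 7 of 18 GST and 3 of 10 SULT genes tested fell, and the SULT gene Sult2a3 rose. Summed CPM of all UGT members ran from 1519 to 2261 with a median of 1703 in p150neg livers, and from 2988 to 4956 with a median of 3921 in p150pos livers. For GST members the sums ran from 3038 to 8195 in p150neg and from 6111 to 9084 in p150pos livers, and for SULT members from 2760 to 3872 in p150neg and from 2569 to 4544 in p150pos livers. The UGT sums did not overlap between the groups, while the GST and SULT sums did. With all labelled libraries, other-organ RNA included, 11 members fell and none rose, beside 7.37% of all genes called. In whole tissue, fewer cells of a type and less RNA per cell cannot be told apart.

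**Figure D2:**
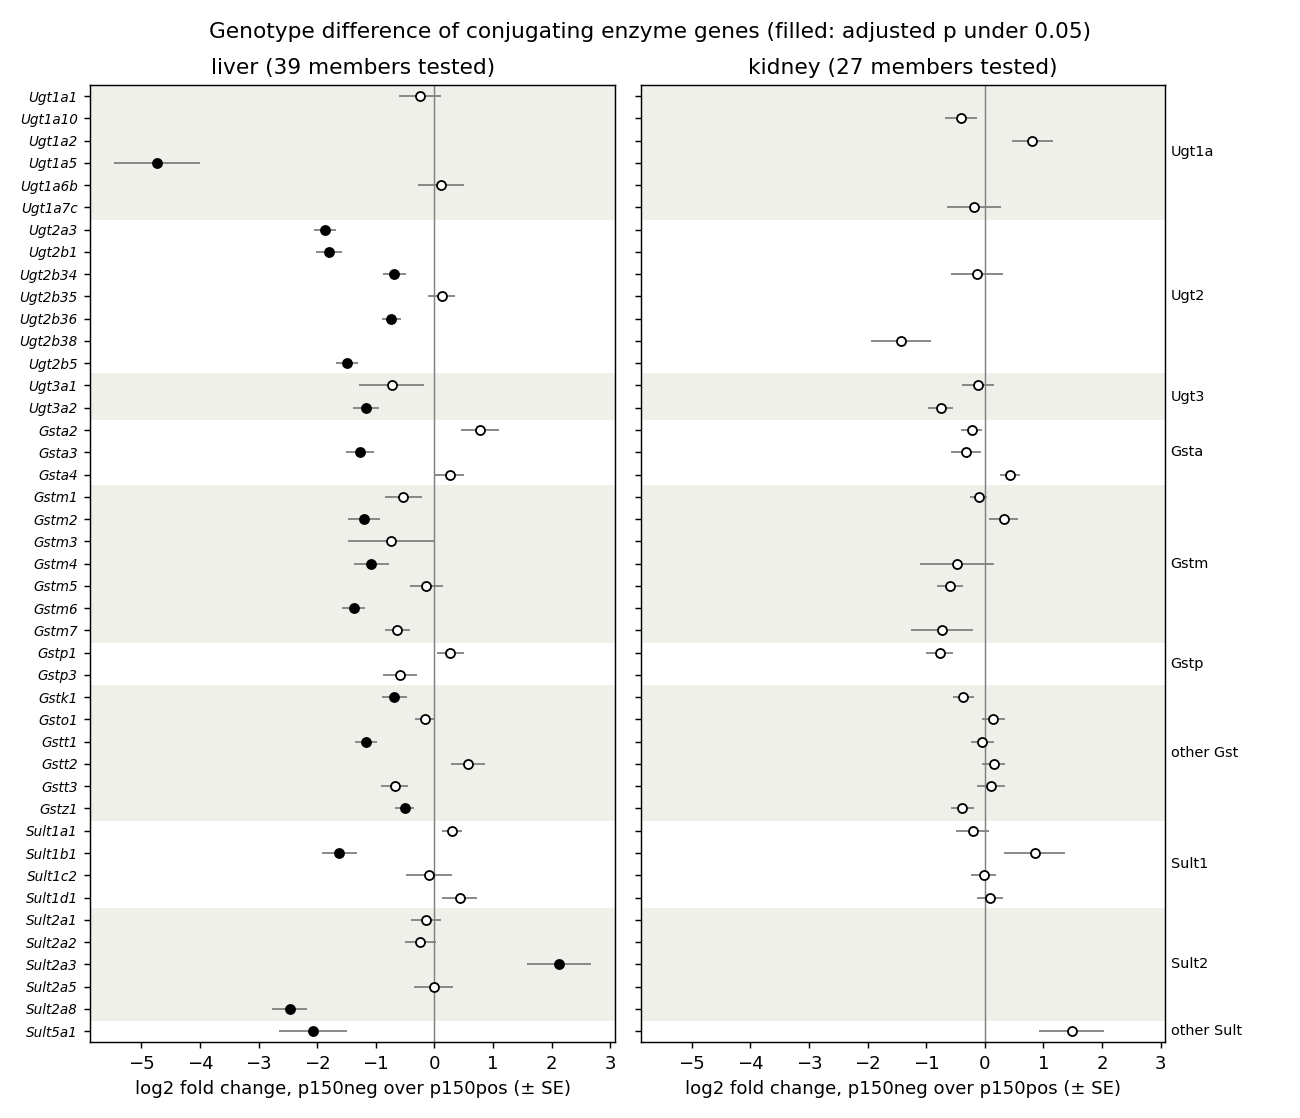
Log2 fold change (p150neg over p150pos) with its SE for each member tested in liver (left) and kidney (right), in families from top to bottom; filled points had an adjusted p under 0.05 in edgeR. In liver 17 filled points lie below 0 and 1 above, and in kidney there are none.

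Among the UGT genes of liver, 5 of 6 tested Ugt2 genes, 1 of 3 Ugt1a genes and 1 of 2 Ugt3 genes fell. The Ugt2 genes glucuronidate steroids, bile acids and many drugs. Ugt2a3 ran from 44.9 to 83.0 CPM with a median of 56.9 in p150neg livers, and from 188 to 282 with a median of 226 in p150pos livers. Every p150neg liver was below every p150pos liver, and Ugt2a3 fell by 1.87 as a log2 fold change (SE 0.18, adjusted p = 1.45e-06). Ugt2b1 ran from 102 to 160 CPM with a median of 113 in p150neg livers and from 222 to 739 with a median of 409 in p150pos livers, again without overlap. It fell by 1.80 (SE 0.22, adjusted p = 1.36e-05). Ugt2b5 ran from 268 to 489 CPM with a median of 359 in p150neg livers and from 696 to 1475 with a median of 967 in p150pos livers. Its groups did not overlap either, and it fell to 0.355 of the p150pos level (SE of the log2 fold change 0.19, adjusted p = 1.80e-05). Ugt2b5 shares 41.7% of its 50-base stretches with other transcripts, so reads may be split between near-identical genes. Ugt2b36, which ranks first among Ugt2 genes by mean CPM over both genotypes but below Ugt2b5 in p150pos livers, ran from 363 to 660 CPM with a median of 537 in p150neg livers and from 705 to 1003 with a median of 898 in p150pos livers. It fell by 0.73 (SE 0.16, adjusted p = 0.00372), with no overlap. Ugt2b34 fell by 0.68 (SE 0.20, adjusted p = 0.0278), and its groups overlapped, at 186 to 433 CPM in p150neg and 239 to 589 CPM in p150pos livers. It lost its call in 6 of 14 fits without 1 liver (adjusted p up to 0.0605). Ugt2b35 was the tested Ugt2 gene that passed no test. It ran from 137 to 302 CPM with a median of 196 in p150neg livers and from 88.5 to 319 with a median of 171 in p150pos livers, a log2 fold change of 0.12 with a 95% interval from -0.35 to 0.59.

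Ugt2b37, next to Ugt2b5, and Ugt2b38, further along chromosome 5, were under the filter in liver. Ugt2b37 had 0 counts in all 7 p150neg livers, against 369 counts in all over the 7 p150pos livers, where it ran from 3.04 to 30.5 CPM with a median of 19.2. Set against 3 counts over the whole p150neg group, its pooled level was at least 97.2-fold lower in p150neg livers. Ugt2b38 had 4 counts over the p150neg livers and 63 over the p150pos livers. Of its 50-base stretches Ugt2b38 shares 37.4%, with 34.1% in Ugt2b5, and Ugt2b37 shares 18.3%, so the few reads of both are uncertain. With no filter on low counts, under which 6.16% of all genes were called, Ugt2b37 passed the test (adjusted p = 1.74e-09) and so did Ugt2b38 (adjusted p = 0.00816), and of the 57 members 21 were called lower and 2 higher. The 8 Ugt2 genes and 3 Sult1 genes, Sult1b1, Sult1d1 and Sult1e1, form a run of 11 members within 0.702 Mb of chromosome 5 (86889767 to 87591594, GRCm38). The fallen members of the run are not all next to each other, since Ugt2b35 lies between Ugt2b1 and Ugt2b36. Sult1d1, which did not pass, lies beyond Sult1b1, the last fallen member of the run.

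**Figure D3:**
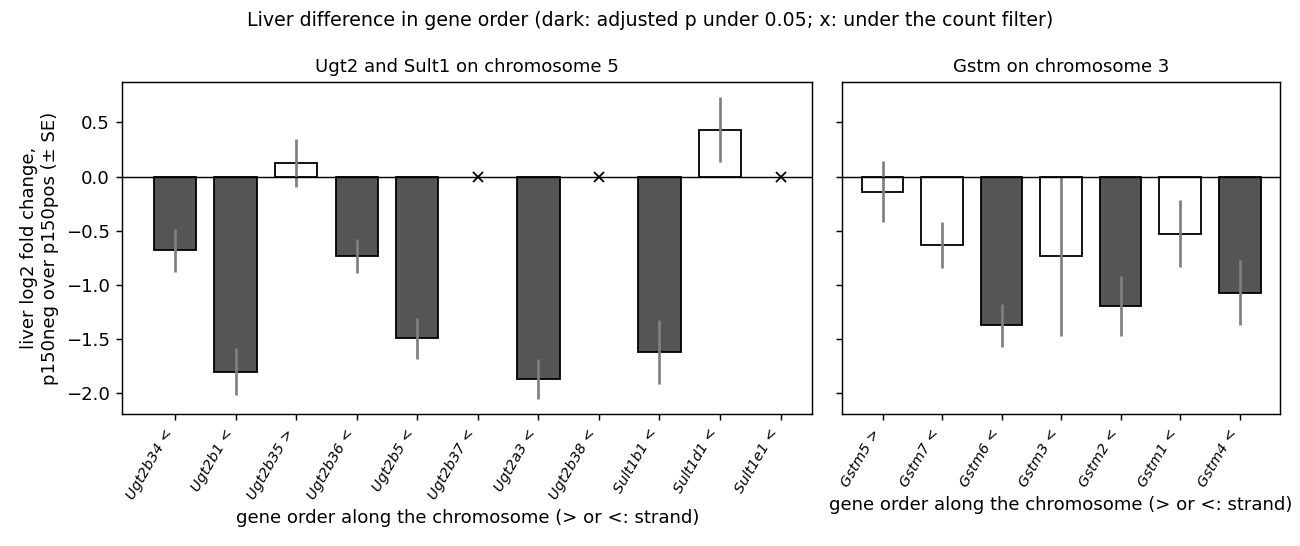
Liver log2 fold change (p150neg over p150pos, ± SE) of the members in their order along chromosome 5 (left, 11 members) and chromosome 3 (right, 7 members); dark bars had an adjusted p under 0.05, open bars did not, and an x marks a member under the count filter, drawn at 0 with no fold change. On chromosome 5 the open bar of Ugt2b35 stands between dark bars, and that of Sult1d1 follows the last dark bar, Sult1b1. On chromosome 3 all 7 bars point down and 3 are dark.

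The Ugt1a genes are alternative first exons joined to common downstream exons, so 52.1% to 80.2% of each one's 50-base stretches are shared and the level of any single Ugt1a gene is uncertain. Ugt1a1, the bilirubin-conjugating enzyme and the Ugt1a gene with the highest mean CPM in liver, ran from 7.51 to 53.2 CPM with a median of 40.8 in p150neg livers and from 8.10 to 81.1 with a median of 51.3 in p150pos livers. The groups overlapped and the log2 fold change was -0.24 (SE 0.36, adjusted p = 0.753). Ugt1a5 had 0 to 4.01 CPM with a median of 0.264 in p150neg livers and 3.86 to 76.8 CPM with a median of 21.4 in p150pos livers. One p150neg liver, at 4.01 CPM, lay above the lowest p150pos liver, and Ugt1a5 fell by 4.73 (SE 0.73, adjusted p = 0.000147). With most p150neg livers near 0, the value of 4.73 is a poor measure of size. Ugt1a9, under the filter, had 22 counts over the p150neg livers and 259 over the p150pos livers, and passed the test with no filter (adjusted p = 5.72e-05). Ugt1a6b, a phenol-conjugating enzyme, gave a log2 fold change of 0.11 with a 95% interval from -0.72 to 0.94. Of the Ugt3 genes, Ugt3a2, which in humans and mice uses sugars other than glucuronic acid, ran from 136 to 308 CPM with a median of 197 in p150neg livers and from 347 to 648 with a median of 496 in p150pos livers. It fell by 1.17 (SE 0.22, adjusted p = 0.000957) with no overlap. Ugt3a1 did not pass (log2 fold change -0.73, adjusted p = 0.496).

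Among the GST genes of liver 7 of 18 fell and 11 did not pass, and no member rose. Gsta3, an alpha-class enzyme known in mouse for conjugating aflatoxin epoxide, was the Gsta gene with the highest mean CPM. It ran from 389 to 1033 CPM with a median of 676 in p150neg livers and from 991 to 2293 with a median of 1724 in p150pos livers. Only the highest p150neg liver reached into the p150pos range, and Gsta3 fell by 1.27 (SE 0.23, adjusted p = 0.000803). The other tested alpha genes had positive values that did not pass: 0.78 for Gsta2 (adjusted p = 0.148) and 0.26 for Gsta4 (adjusted p = 0.592), which conjugates 4-hydroxynonenal. Gsta2 shares 49.8% of its 50-base stretches, mostly with Gsta1.

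The 7 mu-class genes lie within 0.149 Mb of chromosome 3 (107895821 to 108044894), and all 7 log2 fold changes in liver were negative, from -1.38 to -0.14, with 3 past the test. Gstm6 ran from 26.9 to 60.3 CPM with a median of 53.8 in p150neg livers and from 91.1 to 178 with a median of 121 in p150pos livers, with no overlap. It fell by 1.38 (SE 0.20, adjusted p = 6.59e-05). Gstm2 fell to 0.435 of the p150pos level (adjusted p = 0.00606) and ran from 19.0 to 94.3 CPM in p150neg and from 80.3 to 184 CPM in p150pos livers. Gstm4 fell by 1.07 (SE 0.30, adjusted p = 0.0211) and ran from 30.4 to 77.8 CPM in p150neg and from 23.9 to 179 CPM in p150pos livers, with an adjusted p of 0.0503 without p150pos animal 7. Gstm1, the main mu-class enzyme of liver, was spread widely in both groups. It ran from 702 to 3466 CPM with a median of 1416 in p150neg livers and from 828 to 3399 with a median of 2630 in p150pos livers, a log2 fold change of -0.53 with a 95% interval from -1.18 to 0.12 (adjusted p = 0.336). Gstm3 spread further, from 8.11 to 685 CPM in p150neg and from 31.6 to 563 CPM in p150pos livers (log2 fold change -0.74, adjusted p = 0.617).

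Of the remaining GST genes, Gstt1, a theta-class enzyme that acts on small halogenated molecules, fell most. It ran from 124 to 363 CPM with a median of 305 in p150neg livers and from 569 to 727 with a median of 632 in p150pos livers, without overlap. It fell by 1.17 (SE 0.19, adjusted p = 0.000257). Of its neighbours on chromosome 10, Gstt3 had a log2 fold change of -0.67 (adjusted p = 0.0645 with edgeR), and it passed with DESeq2 (adjusted p = 0.0415) and with no filter on low counts (adjusted p = 0.0455). Gstt2 had a log2 fold change of 0.58 (adjusted p = 0.242). Gstz1, the maleylacetoacetate isomerase of tyrosine breakdown, ran from 533 to 692 CPM with a median of 669 in p150neg livers and from 797 to 1162 with a median of 948 in p150pos livers. The groups did not overlap, and it fell by 0.51 (SE 0.16, adjusted p = 0.0493). Gstk1, a mitochondrial and peroxisomal enzyme, fell by 0.68 (SE 0.22, adjusted p = 0.0443) and ran from 114 to 237 CPM in p150neg and from 214 to 420 CPM in p150pos livers. The calls of Gstz1 and Gstk1 sit at the threshold: when each of the 14 livers was left out in turn, Gstz1 lost its call in 10 fits (adjusted p up to 0.108) and Gstk1 in 11 (up to 0.0982). Gstp1, the pi-class enzyme with the highest mean CPM of its family, had 392 to 941 CPM with a median of 560 in p150neg livers and 348 to 899 with a median of 487 in p150pos livers, a log2 fold change of 0.27 (adjusted p = 0.550).

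The SULT genes of liver moved in both directions. Sult2a8, which in mouse sulfates bile acids, ran from 38.6 to 153 CPM with a median of 63.4 in p150neg livers and from 279 to 676 with a median of 458 in p150pos livers. No p150neg liver came near the p150pos range, and Sult2a8 fell by 2.47 (SE 0.30, adjusted p = 1.19e-05), to 0.180 of the p150pos level. Sult2a3, a relative of the same family on chromosome 7, ran from 15.2 to 109 CPM with a median of 37.8 in p150neg livers and from 1.55 to 31.1 with a median of 5.43 in p150pos livers. The groups overlapped and Sult2a3 rose by 2.13 (SE 0.55, adjusted p = 0.0135). The abundant hydroxysteroid sulfotransferases did not pass the test: Sult2a1 ran from 744 to 1533 CPM in p150neg and from 698 to 1678 CPM in p150pos livers, a log2 fold change of -0.14 with a 95% interval from -0.67 to 0.39. Sult2a2 had a log2 fold change of -0.24 (adjusted p = 0.664) and Sult2a5 one of -0.01 (adjusted p = 0.991). Sult2a1, Sult2a2 and Sult2a5 share 33.2% to 62.1% of their 50-base stretches, so their single values are uncertain.

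Sult1a1, the main phenol sulfotransferase, ran from 720 to 1084 CPM with a median of 923 in p150neg livers and from 640 to 943 with a median of 730 in p150pos livers. The value of 0.30 (log2 fold change, adjusted p = 0.315) did not pass. Sult1b1, which sulfates thyroid hormones, ran from 5.01 to 20.5 CPM with a median of 7.51 in p150neg livers and from 21.5 to 45.4 with a median of 33.7 in p150pos livers. The groups did not overlap, and Sult1b1 fell by 1.62 (SE 0.30, adjusted p = 0.000826). Its neighbour Sult1d1, a catecholamine and phenol sulfotransferase, had a log2 fold change of 0.43 (adjusted p = 0.439). Sult5a1, read from few counts, ran from 0 to 6.74 CPM in p150neg and from 3.39 to 12.5 CPM in p150pos livers and fell by 2.07 (SE 0.58, adjusted p = 0.0226). Without p150neg animal 14 the adjusted p was 0.0556.

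Sult1e1 and Sult3a1, under the filter in liver, differed in their counts. Sult1e1, the oestrogen sulfotransferase, had 192 counts over the p150neg livers and 21 over the p150pos livers, and passed the test with no filter (log2 fold change 3.58, adjusted p = 0.000401). Its 3 highest p150neg livers, at 31.3, 24.8 and 18.9 CPM, had 0 CPM of Xist, the transcript of the inactive X chromosome, while the other 4, at 0.528 to 3.76 CPM, had 175 to 291 CPM of Xist. Xist was above 10 CPM in 4 of 7 p150neg and 3 of 7 p150pos livers, and its part in the Sult1e1 difference was not tested. Sult3a1 had 0 counts in the p150neg livers and 33 over the p150pos livers, at least 8.70-fold lower against 3 counts over the p150neg group.

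**Figure D4:**
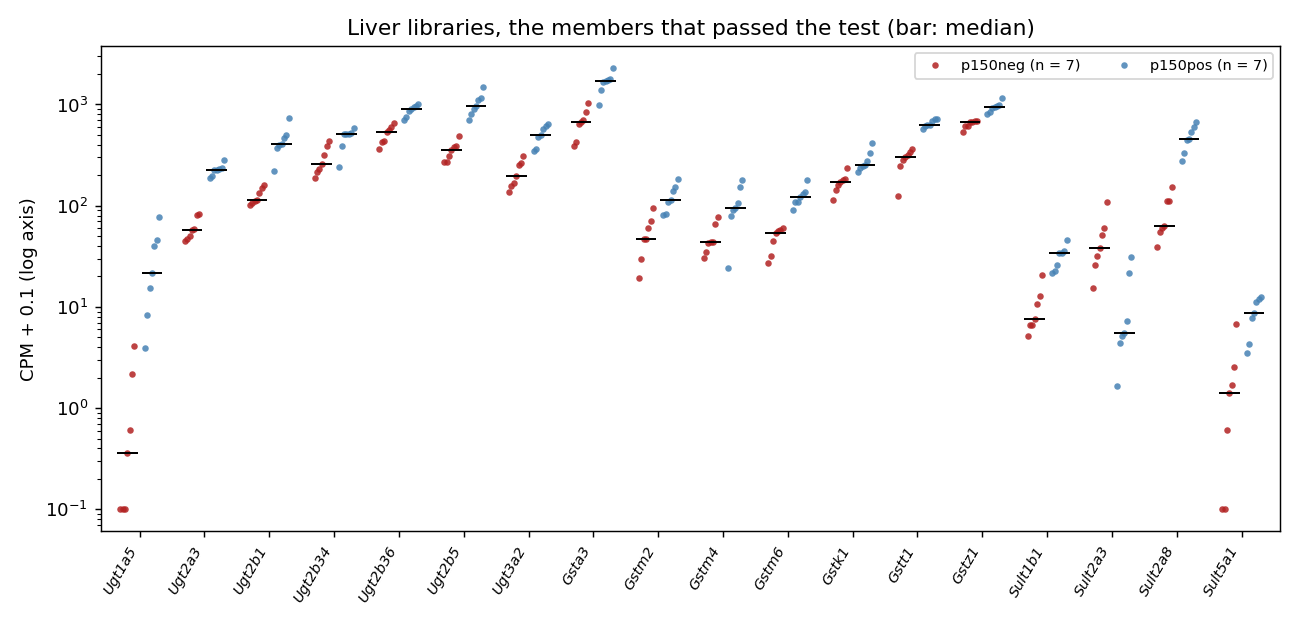
CPM of each liver library (points, sorted by value within a group; CPM + 0.1 on a log axis) for the 18 members with an adjusted p under 0.05, p150neg left of p150pos, with a bar at the median. The ranges of the groups do not overlap in 10 of the 17 members that fell, and Sult2a3 is the member whose p150neg livers lie higher.

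Other genes of the same pathways moved less evenly in liver, where 4.76% of all genes tested were called lower and 6.94% higher in p150neg animals. None of the 10 tested genes that supply cosubstrates passed: Ugdh, which makes UDP-glucuronic acid, had a log2 fold change of -0.22 (adjusted p = 0.761), and Gclc, the catalytic subunit of the rate-limiting enzyme of glutathione synthesis, one of -0.05 (adjusted p = 0.946). None of the 2 tested genes for membrane-bound and sigma-class GSTs and none of the 10 nuclear receptors and regulators passed. Of 7 tested genes for export and processing of conjugates 1 fell, Acy3, an aminoacylase that acts on mercapturic acids, by 1.02 (adjusted p = 0.00149). Of 13 tested NRF2 targets 3 fell and 3 rose: Hmox1, haem oxygenase 1, rose by 2.83 (adjusted p = 3.51e-05), and Me1, malic enzyme, fell by 1.80 (adjusted p = 0.00111). Of 6 tested targets of the receptors AHR, CAR and PXR, Cyp1a2 fell by 3.95 (adjusted p = 1.97e-06), Cyp2b10 fell by 3.57 (adjusted p = 0.00149) and Tiparp rose by 1.74 (adjusted p = 0.00228).

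Cell type markers moved with genotype as well. The counts of liver markers below stand beside 4.76% of all genes tested called lower and 6.94% called higher in p150neg livers. In liver 9 of 9 tested neutrophil markers and 9 of 10 macrophage markers rose. The neutrophil list summed to 451 to 1670 CPM in p150neg and 27.3 to 176 CPM in p150pos livers, and the macrophage list to 1531 to 3428 CPM in p150neg and 526 to 1212 CPM in p150pos livers. Of 6 tested markers of pericentral hepatocytes, the cells around the central vein that hold much of the drug-metabolizing machinery, 4 fell, with list sums of 1764 to 4384 CPM in p150neg and 2723 to 8843 CPM in p150pos livers. Of 8 periportal markers 2 fell, Cyp2f2 by 1.70 and Ass1 by 0.94, with list sums of 4409 to 9930 CPM in p150neg and 4733 to 9775 CPM in p150pos livers. A small intestine list summed to 215 to 984 CPM in p150neg and 80.2 to 191 CPM in p150pos livers, where Apoa4, also a liver gene, rose by 4.37 (adjusted p = 3.26e-06), Fabp2 did not pass, and the defining markers Sis and Lct were at 0 in all livers. An adipocyte list summed to 10.0 to 197 CPM in p150neg and 2.32 to 6.04 CPM in p150pos livers, where Cidec, the single gene tested and one that hepatocytes can also express, rose by 4.73 (adjusted p = 1.38e-05), and Plin1 was at 0 in all livers. The part of these cell types in the conjugating enzyme differences was not tested. An adrenal list summed to 0.802 to 5.81 CPM in p150neg and 4.76 to 92.9 CPM in p150pos livers, with Cyp11b1 and Cyp21a1 at 0 in all of them, and its part was not tested.

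In kidney no conjugating enzyme gene passed the test. Of the 57 members 27 were tested with edgeR, 0 were called beside 0.694% of 11957 genes, and 7 had an unadjusted p under 0.05, beside 8.19% of all genes tested. DESeq2 called 1 of the 27 (Gstp1), beside 2.56% of all genes, and limma's voom called 0, beside 0.778%. The median log2 fold change was -0.14 over the 27 members and -0.07 over all genes tested. The 30 other members were under the filter, all 8 Sult2 genes among them. The shallowest kidney library, p150neg animal 3 with 0.269 M counts, had 0 counts for most members, so low values of that animal say little.

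Ugt3a2 had the highest level per kilobase in kidney. Its p150neg kidneys had 1130, 1123, 1100, 989 and 847 CPM, and its p150pos kidneys ran from 1059 to 2523 CPM with a median of 1446. The groups overlapped, and their log2 fold change was -0.75 (SE 0.21, adjusted p = 0.158). Ugt1a2, the Ugt1a gene with the highest mean CPM, had 875, 628, 462, 381 and 331 CPM in p150neg kidneys and 85.5 to 491 CPM with a median of 289 in p150pos kidneys, and its log2 fold change was 0.81 (SE 0.35, adjusted p = 0.520). Ugt2b34 had 105, 88.9, 60.6, 57.5 and 0 CPM in p150neg kidneys and 53.9 to 85.8 CPM with a median of 66.3 in p150pos kidneys. The 0 was that of animal 3, and the log2 fold change of -0.14 (adjusted p = 0.986) became 0.12 without it. Ugt2b38, with overlapping groups and 0 counts in animal 3, had a log2 fold change of -1.43 (adjusted p = 0.343).

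Gstp1 was the single tested member whose kidney groups did not overlap, a separation in that direction seen in 1.02% of all genes tested in kidney. It had 90.9, 85.4, 73.9, 71.3 and 45.7 CPM in p150neg kidneys and 91.5 to 142 CPM with a median of 103 in p150pos kidneys. Its log2 fold change was -0.77 (SE 0.22, adjusted p = 0.163 with edgeR, and -0.72 with an adjusted p of 0.0274 with DESeq2). Gstp1 shares 33.7% of its 50-base stretches with other transcripts, 27.7% with Gstp2, so its single values are less certain. Gstm1 had 962, 709, 587, 578 and 575 CPM in p150neg kidneys and 618 to 733 CPM with a median of 664 in p150pos kidneys, a log2 fold change of -0.10 (95% interval -0.41 to 0.21). Gsta2 had 635, 609, 579, 429 and 423 CPM in p150neg kidneys and 413 to 687 CPM with a median of 581 in p150pos kidneys (log2 fold change -0.22, adjusted p = 0.878). Gstt2 had a log2 fold change of 0.16 (adjusted p = 0.953), and it overlapped widely between the groups.

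Sult1d1 was the dominant kidney sulfotransferase. It had 1626, 1438, 1186, 1145 and 823 CPM in p150neg kidneys and 587 to 1398 CPM with a median of 1106 in p150pos kidneys, a log2 fold change of 0.09 with a 95% interval from -0.39 to 0.57. Sult5a1 had 9.80, 6.56, 6.29, 5.35 and 0 CPM in p150neg kidneys and 0 to 4.28 CPM with a median of 1.88 in p150pos kidneys (log2 fold change 1.48, adjusted p = 0.374). Sult2b1, the cholesterol sulfotransferase and the Sult2 gene with the highest mean CPM in kidney, stayed at 0 to 6.68 CPM in p150neg and 0 to 6.15 CPM in p150pos kidneys. The calls of related genes and markers in kidney that follow stand beside 0.694% of all genes tested called there. Of the related genes in kidney, Acy3 fell by 1.45 (adjusted p = 0.00537) and Me1 fell by 1.31 (adjusted p = 0.00812). Gclm, the other subunit of that rate-limiting enzyme, had a log2 fold change of -1.01 (adjusted p = 0.0547) and the 10 cosubstrate genes gave no call. Of 8 proximal tubule markers 1 fell, Slc5a2, with list sums of 2964 to 4486 CPM in p150neg and 4295 to 7197 CPM in p150pos kidneys, and of 4 tested neutrophil markers 1 rose, S100a8, with list sums of 126 to 250 CPM in p150neg and 9.86 to 81.6 CPM in p150pos kidneys, without overlap. Their part in the kidney values was not tested.

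In cerebellum 16 members were tested with edgeR and 0 were called, beside 0.997% of all genes tested. None had an unadjusted p under 0.05, beside 9.57% of all genes, and DESeq2 and limma's voom also called 0, beside 2.21% and 0.472%. No UGT gene passed the filter. Sult4a1 ran from 170 to 301 CPM with a median of 228 in p150neg cerebella and from 184 to 293 with a median of 263 in p150pos cerebella. Its log2 fold change was -0.14 with a 95% interval from -0.44 to 0.15. Gstm1 had a log2 fold change of 0.17 (95% interval -0.11 to 0.45) and Gstm5, a mu-class gene of brain, one of 0.42 (95% interval -0.10 to 0.93).

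The genotype difference was then compared between liver and kidney by the genotype by tissue term of a joint fit. It was tested for 47 members and passed for 6, all more negative in liver, beside 1.5% of all genes tested (0.655% in that direction). With the animal as a replicate block, since 11 animals gave both tissues, 3 members passed, beside 0.914% of all genes: Ugt2b37 (adjusted p = 0.00983) and Gstt1 (adjusted p = 0.0412) still, and Gstp1, whose difference was 1.27 more positive in liver (adjusted p = 0.0399). The 4 others did not pass with the block, at an adjusted p of 0.0519 for Ugt2b5, 0.0571 for Sult1b1, 0.122 for Sult5a1 and 0.240 for Gstm2. In the fit of all labelled libraries 1 member passed, beside 0.557%.

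Gstt1 had 304, 230, 201, 191 and 185 CPM in p150neg kidneys and 172 to 299 CPM with a median of 194.8 in p150pos kidneys, which is -0.04 as log2 fold change in kidney beside -1.17 in liver. The liver minus kidney difference was -1.13 (SE 0.28, adjusted p = 0.0296). Ugt2b37 had 9.80, 9.80, 4.51, 3.43 and 0 CPM in p150neg kidneys and 0 to 3.95 CPM with a median of 1.93 in p150pos kidneys, so that it was read in kidneys of both genotypes while p150neg livers had none. The difference of -10.42 (SE 1.30, adjusted p = 4.18e-05) rests on a liver group at 0 and is no measure of size. Sult1b1 had 38.9, 34.8, 28.0, 15.2 and 0 CPM in p150neg kidneys and 6.97 to 22.3 CPM with a median of 11.5 in p150pos kidneys. Its difference was -2.52 (SE 0.57, adjusted p = 0.0129). Sult5a1 gave -3.56 (SE 0.88, adjusted p = 0.0273) and Gstm2 -1.52 (SE 0.39, adjusted p = 0.0361). Ugt2b5 gave -3.73 (SE 0.68, adjusted p = 0.00183), and its kidney values were low except in p150neg animal 3, at 74.3 CPM from 20 counts. Without that kidney library the difference was -2.94 (adjusted p = 0.00128). When each of the 26 libraries was left out in turn, the difference lost its call in 12 fits for Gstm2 (adjusted p up to 0.103), in 7 for Gstt1 (up to 0.0942) and in 2 for Sult5a1, without the kidney of p150neg animal 1 or 8 (up to 0.0716). Of the 10 members called in liver and tested in kidney, 7 that fell in liver had a negative kidney value, none of them past the test. That stands beside 18 of the 27 members and 6736 of the 11957 genes tested in kidney. Sult1b1 (0.85), Gstm2 (0.32) and Sult5a1 (1.48), which also fell in liver, had positive kidney log2 fold changes.

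**Figure D5:**
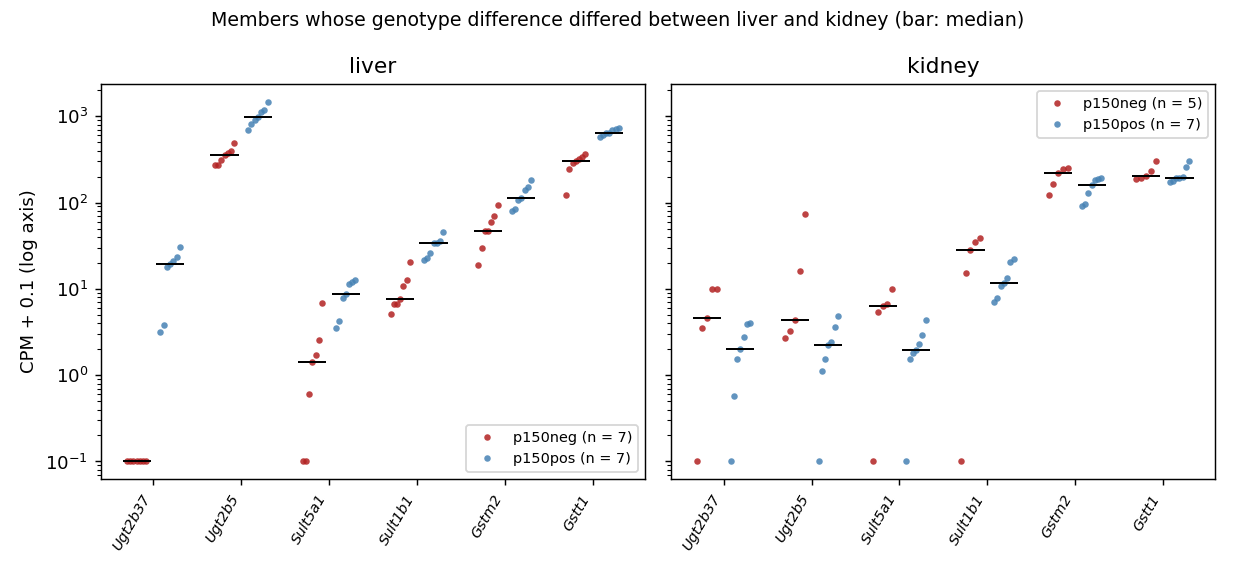
CPM of each library (points, sorted by value within a group, CPM + 0.1 on a log axis) in liver (left) and kidney (right), p150neg left of p150pos, with a bar at the median. The 6 members are those that passed the test of the liver minus kidney difference in the joint fit without an animal block. With the animal as a replicate block only Ugt2b37 and Gstt1 of them passed. Ugt2b37 lies at 0 CPM in all 7 p150neg livers, and in kidney the groups of all 6 members overlap.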

How the data were processed

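Per the labels, RNA was taken from frozen liver, kidney and cerebellum with TRIzol and a column kit with DNase treatment, and libraries were made with the Nextera XT kit. Per the submitters' processing notes, the builds listed are GRCm38 and mm10 and the tools named are FastQC 0.11.3, SAMtools 1.2, Picard 1.134, HTSeq 0.4.1 and STAR 2.4.2a. Their roles and order, the strand setting and the annotation release are not given in the sources used here. The deposited table holds the authors' raw read counts for each gene in 46 columns, each matched to its sample by title, with 0 columns unmatched.

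The table held 53471 entries. Of these, 6 identifiers stood a second time with identical counts and were used once. The 3433 entries without a symbol held 0.267% of counts. CPM values are on library totals, with SD over animals. Nothing in the labels says that libraries of 1 group came from separate litters, so p-values measure the spread between these animals. The precision of each value is limited by depth: in a library of 1 M counts, 10 CPM is 10 counts, and the floor of 3 counts used for genes at 0 covers counting error only.

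Each tissue was tested with edgeR 4.0.16, using the quasi-likelihood test after TMM normalization and a filterByExpr filter on genotype, in R 4.3.3, with Benjamini-Hochberg adjustment over all genes tested and a call at 0.05. The SE of a log2 fold change comes from the F statistic. The liver against kidney difference is the genotype by tissue interaction. Libraries of 1 animal in both tissues are paired by animal, and their deviations from the group means correlated from 0.000648 to 0.193. Alternatives were DESeq2 1.42.0, limma 3.58.1 (voom), RLE factors, other filters, robust dispersion, the identifier prefix or Xist as a term, all labelled libraries, and leaving out libraries. The scripts were tested on simulated data.

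Shared sequence is the percent of a gene's 50-base stretches found in transcripts of other genes of GENCODE M21. Named genes are the members with an adjusted p under 0.05 in liver, kidney or their interaction, the member of each family with the highest mean CPM in liver and in kidney, and up to 3 genes per pathway list. Further members named by their counts or values were chosen after these were seen. Members and lists were chosen with earlier results of these data known.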

Additional observations from a re-analysis of the deposited data

Results flagged for a closer look

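Each group of 4 to 10 libraries of a named member was checked for a library far from the others, judged by its gap to the nearest library against the range of the group. Of 90 groups 3 held such a library, and chance gives about 1 in 20. Gstm1 was at 828 CPM in the liver of p150pos animal 13, below 2430 CPM in the next p150pos liver. Sult5a1 was at 6.74 CPM in the liver of p150neg animal 3, above 2.47 CPM in the next p150neg liver. Ugt2b5 was at 74.3 CPM in the kidney of p150neg animal 3, above 16.0 CPM in the next p150neg kidney, and that library is the shallowest.

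The genotype difference was more negative in liver than in kidney, by the test of the difference itself, for Ugt2b5 (-3.73 on the log2 scale), Sult5a1 (-3.56), Sult1b1 (-2.52), Gstm2 (-1.52) and Gstt1 (-1.13), and for Ugt2b37, whose fitted -10.42 rests on 0 counts in all 7 p150neg livers and is no measure of size. With the animal as a replicate block Ugt2b37 and Gstt1 still passed, and Ugt2b5 (adjusted p = 0.0519), Sult1b1 (0.0571), Sult5a1 (0.122) and Gstm2 (0.240) did not.

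The 5 libraries left out of the comparisons also held conjugating enzymes, at levels above those in all 41 libraries used. In the library labelled kidney p150neg animal 2 this held for 7 members, Gsto1 at 4992 CPM against at most 297 CPM in the libraries used. In the library labelled kidney p150pos animal 12 it held for 7 members, Sult6b2 at 1232 CPM against at most 29.5 CPM. In the library labelled kidney p150neg animal 11 it held for 6 members, Sult1b1 at 513 CPM against at most 45.4 CPM. In the library labelled liver p150neg animal 2 it held for 2 members, and in the library labelled cerebellum p150pos animal 7 for 1, Sult4a1 at 517 CPM against at most 301 CPM.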

How the results depend on the processing

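The count of members called in liver was 18, and it was 11 with all labelled libraries. The other alternatives gave 14 to 23, and leaving out 1 library at a time gave 14 to 19. Of the 18 calls, 10 were kept under all alternatives run. In kidney the count of 0 became 1 with DESeq2 and stayed 0 under the other alternatives, 0 to 0 when 1 library was left out. In cerebellum all alternatives gave 0. The count of 6 for liver against kidney became 3 with the animal as a replicate block (the pairing by animal) and 1 with all labelled libraries, and leaving out 1 library at a time gave 4 to 6. The cause was not tested, except that with all labelled libraries other-organ RNA enters the groups. The 57 members were the same in number when counts were summed over all 46 libraries.

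Signs were checked only for members called, or highest in their family, in the comparison concerned, and for no member in cerebellum. Among these, signs turned only in kidney, for members without a call there in edgeR. Gstp1, 1 of them, passed in kidney with DESeq2 (adjusted p = 0.0274) and in the blocked liver against kidney test (adjusted p = 0.0399). With all labelled libraries the log2 fold change was 0.077 for Gstp1, -0.093 for Gstt2, -0.065 for Sult1d1 and 0.99 for Ugt2b34. Ugt2b34 was at 0.12 without libraries under 1 M counts, and from -0.34 to 0.12 when 1 library was left out, the positive value without p150neg animal 3. Sult1d1 ran from -0.029 to 0.24 when 1 library was left out, negative without p150neg animal 1 or p150pos animal 15, and Gstm1 was at 0.021 with library totals only, an alternative added after the data were seen. That scaling moved the median of all genes by less than 0.1. Depth limits the low members: 18 in liver and 30 in kidney were under the count filter.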
